A study of Mus musculus with 2 samples.

Results

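Paired CTCF summits are positions in the mouse genome where the authors' reproducible ChIP-seq peaks placed a pair of binding maxima within 500 bp of each other. They were selected on measured values: among the summits of the conservative set on autosomes 1 to 19 (mm10 build), a member had its nearest other summit 50 to 500 bp away and fewer than 4 other summits within 20 kb. By this rule 1272 of 42335 autosomal summits were members. Of these, 1262 formed 631 pairs in which each summit was the nearest to the other. The remaining 10 members had no such partner: for 8 the nearest summit lay nearer to another one, and for 2 the partner stood in a denser stretch. The measurement was ChIP-seq with an antibody to CTCF in E14TG2a.4, a mouse embryonic stem cell line that the labels give as male, of strain 129/Ola, embryonic stage and age 3.5 day. The series has a single group of 2 biological replicates of this line, so no condition was compared; replicates were set beside each other and pairs beside other summits. Signal is the authors' peak value on an unstated scale, and because no read counts were given, the depth of each library is unknown. The peak lists hold no expression, so the identity of the line was not checked by marker genes.

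CTCF is a zinc-finger protein that binds a long, directional DNA motif and stops the ring-shaped cohesin complex as it extrudes chromatin loops. In embryonic stem cells its sites mark boundaries between chromatin domains and insulate enhancers from promoters. Clustered sites are of interest because the number and orientation of the motifs are known to bear on where cohesin stops.

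Sequences are shown for pairs that lie at gene starts, because RefSeq promoter windows (GRCm38.p6) give the bases beneath them. Of the 631 pairs, 18 had such a 300 bp window, in 22 windows in all, overlapping the pair or within 100 bp of it. A 20 bp CTCF matrix, learned from 30085 sites in the mm9 peaks of the same libraries, was run over both strands. A site was counted from 11.1 bits, the score that 5% of all 32851 promoter windows reach. By this measure 3 of 9 windows at pairs over 300 bp apart and 4 of 13 at closer pairs held a site. The next lines give the 250 bases upstream of 3 gene starts, 5′ to 3′ on the strand of the gene, with the best matrix match in capitals.
Pts, chr9:50528657-50528906, minus strand: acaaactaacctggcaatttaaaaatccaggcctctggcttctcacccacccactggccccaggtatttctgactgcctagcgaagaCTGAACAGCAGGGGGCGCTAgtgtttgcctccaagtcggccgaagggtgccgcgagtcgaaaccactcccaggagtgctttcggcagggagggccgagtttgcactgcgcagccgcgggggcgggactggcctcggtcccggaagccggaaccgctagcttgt
Psmc6, chr14:45329574-45329823, plus strand: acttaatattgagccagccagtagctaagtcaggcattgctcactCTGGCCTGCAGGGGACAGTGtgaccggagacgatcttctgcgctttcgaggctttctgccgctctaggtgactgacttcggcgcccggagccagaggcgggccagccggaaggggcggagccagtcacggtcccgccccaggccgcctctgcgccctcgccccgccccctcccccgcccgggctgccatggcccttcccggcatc
Samd9l, chr6:3399572-3399821, minus strand: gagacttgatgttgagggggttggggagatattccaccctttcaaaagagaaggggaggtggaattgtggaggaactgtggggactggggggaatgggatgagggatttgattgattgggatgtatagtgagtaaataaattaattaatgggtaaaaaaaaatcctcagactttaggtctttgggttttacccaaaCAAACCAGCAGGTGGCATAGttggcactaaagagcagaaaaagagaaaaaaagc

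At Pts, which encodes an enzyme of tetrahydrobiopterin synthesis, the match scored 19.9 bits, a level reached by 0.539% of promoter windows, and its centre lay 28.5 bp to the left of the right summit. At Psmc6, an ATPase subunit of the proteasome cap, the match scored 12.7 bits (3.31% of windows) and lay 26.5 bp to the right of the right summit. Both belong to pairs more than 300 bp apart, and in both the match lay near a summit. In the other window with a site at such a pair, that of Zbtb45, the match was centred 367.5 bp to the right of the right summit. At Samd9l, an interferon-inducible gene, the summits were 219 bp apart and both fell inside the window. The match there scored 16.7 bits (1.27% of windows) and was centred 47.5 bp to the right of the left summit and 171.5 bp to the left of the right summit, so it lay between them.

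The stretches beneath these pairs were also read from the mm9 genome (NCBIM37), since all 22 windows matched it exactly once. Each of the 18 pairs' windows overlapped a single broad peak of the authors' pooled mm9 list. Those peaks were 1234 to 1459 bp wide for 7 pairs over 300 bp apart and 585 to 1313 bp for 11 closer ones. A second motif therefore could be looked for beyond the promoter window. At least 2 sites were present in 2 of the 7 and 2 of the 11 peaks, while 13.8% of all mm9 peaks scanned, and 21.6% of the 8396 that were 1000 to 1499 bp wide, held as many. No site was present in 3 of the 7 and 4 of the 11 peaks, whereas 83.7% of all mm9 peaks and 90.3% of that width class held at least 1. The sites of 3 of the 4 peaks with at least 2 are printed, Fdxacb1 being the other, on the motif's own strand, with the 20 bp match in capitals, 5 bases either side, and mm9 coordinates of the match.
Psmc6 first site, chr14:45948861-45948880, minus strand: tcacaGAAGCCAGTAGAGGGCATCGgattt
Psmc6 second site, chr14:45949294-45949313, plus strand: tcactCTGGCCTGCAGGGGACAGTGtgacc
Zbtb45 first site, chr7:13594607-13594626, plus strand: ctcacGTGGCCGCCAGAGGGAGCCTgcgaa
Zbtb45 second site, chr7:13595000-13595019, minus strand: acgttGCGAACACAAGAGGGCGCTGcagga
Cstdc2 first site, chr2:148677012-148677031, plus strand: ctggaCGTGCCAGTAGAGGGAGACAgtgac
Cstdc2 second site, chr2:148677283-148677302, minus strand: taattATGGCCACAAGAGGGCATAAttggc

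The Psmc6 sites scored 22.7 and 12.7 bits, lay outside annotated genes and were 433 bp apart on opposite strands, where the summits on mm10 were 455 bp apart. The pooled mm9 peak there had a fold enrichment of 28.3, and the separately called replicate peaks over the window had 35.9 in replicate 1 and 31.7 in replicate 2, a mean of 33.8 ± 2.97 (SD, n = 2). The first 2 Zbtb45 sites, in an intron and an exon of this BTB zinc-finger gene, scored 14.3 and 19.5 bits and were 393 bp apart, beside a summit spacing of 469 bp. Another Zbtb45 site of 11.6 bits followed 432 bp further on, in the promoter window of the gene. The Cstdc2 sites, which GENCODE vM1 places in an intron of 9230104L09Rik, scored 16.2 and 21.8 bits and were 271 bp apart, beside a summit spacing of 230 bp. Motif and summit distances therefore differed by 22 bp at Psmc6 and 41 bp at Cstdc2. At Zbtb45 they differed by 76 bp for the first 2 sites. The further Zbtb45 site was centred 367.5 bp to the right of the right summit, outside the pair. Its distance of 432 bp from the site before it was therefore not set beside the spacing. The Fdxacb1 sites were 233 bp apart, beside a summit spacing of 199 bp, a difference of 34 bp. Such distances alone do not place a motif at each summit. A match of the matrix is a description of these letters and was not tested for binding.

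The distances between paired summits fell into separate ranges. In 510 pairs, called close pairs here, the summits were 199 to 283 bp apart with a median of 203 bp, and in 121 pairs, called wide pairs, they were 346 to 499 bp apart with a median of 455 bp. When the rule was run on each replicate's own 42335 strongest entries, close pairs numbered 144 and 157 and wide pairs 150 and 151, so the classes were nearly equal in number in each replicate. In the conservative set no pair lay between the 2 ranges, and the division at 300 bp was made after the distances were seen. The close pairs were crowded at their lower end: 381 pairs (60.4% of all) were 199 to 210 bp apart and 63 were exactly 199 bp apart. No list in the series, the full lists of 300000 entries included, placed neighbouring autosomal summits nearer than 199 bp. The rule's lower bound of 50 bp was thus never reached, and a pair of sites nearer than 199 bp would not be seen as a pair in these lists. Among wide pairs, 115 of 121 were 400 bp apart or more. At the upper bound, 22 summits had their nearest neighbour at 490 to 500 bp and 22 at 501 to 510 bp, with median signals of 70.2 just inside and 80.7 just outside. The median ratio was 2.75 in the 11 pairs just inside and 1.19 in the 10 just outside.

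**Figure D1:**
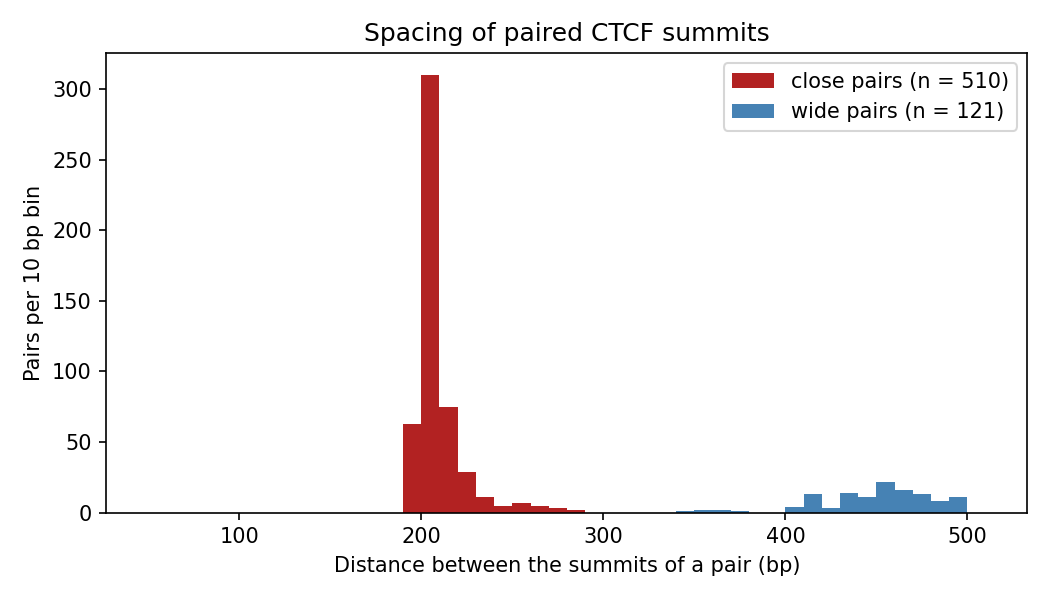
Distance between the summits of each of the 631 pairs (x axis, bp) against the number of pairs per 10 bp bin (y axis), with close pairs in red and wide pairs in blue. The close pairs pile up from 199 to 210 bp, the stretch from 284 to 345 bp is empty, and the wide pairs spread over 346 to 499 bp.

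Close pairs mostly joined a summit below the median signal of all autosomal summits to a fainter one. Both lay below that median in 405 of 510 close pairs (79.4%), beside 37.2% of wide pairs. The stronger summit had a median pooled signal of 38.3 (quartiles 24.6 and 67.4) and the weaker one 11.3 (quartiles 9.01 and 17.4), while the median over all autosomal summits was 78.4. The median ratio of stronger to weaker signal was 2.75, and it passed 5 in 105 pairs and stayed under 1.5 in 66. The side of the stronger summit was nearly fixed: it was the left one, at the lower coordinate, in 494 of 510 close pairs (96.9%). Among neighbours under 300 bp apart in the full lists, the left summit was the stronger in 83.6% of 4119 in replicate 1, in 84.6% of 4081 in replicate 2 and in 84.8% of 3970 in the pooled list. Among neighbours 300 to 500 bp apart the shares were 49.2%, 49.3% and 49.4%. The asymmetry was present in both replicates and was limited to neighbours under 300 bp in these comparisons; its cause was not tested. The sources used here do not say how the authors' peak caller separates neighbouring summits, and its part in the 199 bp floor and in the stronger left summit was not tested. A close pair may therefore be a pair of sites or a single site listed with a faint further summit, and these cannot be told apart here.

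Wide pairs had stronger and more equal summits than close pairs, but weaker ones than neighbours 501 to 2000 bp apart. Their stronger summit had a median signal of 93.8 (quartiles 69.4 and 134.9) and their weaker one 45.7 (quartiles 28.5 and 63.8), as against medians of 125.4 and 54.4 in 1814 mutual nearest neighbours 501 to 2000 bp apart under the same density rule. The left summit was the stronger in 63 of 121 wide pairs (52.1%), and in 49.8% of those neighbours. The median ratio was 1.93, beside 1.86 in those neighbours, and it passed 5 in 9 pairs and stayed under 1.5 in 40. Both summits exceeded the median signal of the whole set in 14 wide pairs (11.6%), in 4 close pairs (0.784%) and in 31.6% of the neighbours. These signals come from the same pooled list that chose the members, so they are given as a description with no test.

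**Figure D2:**
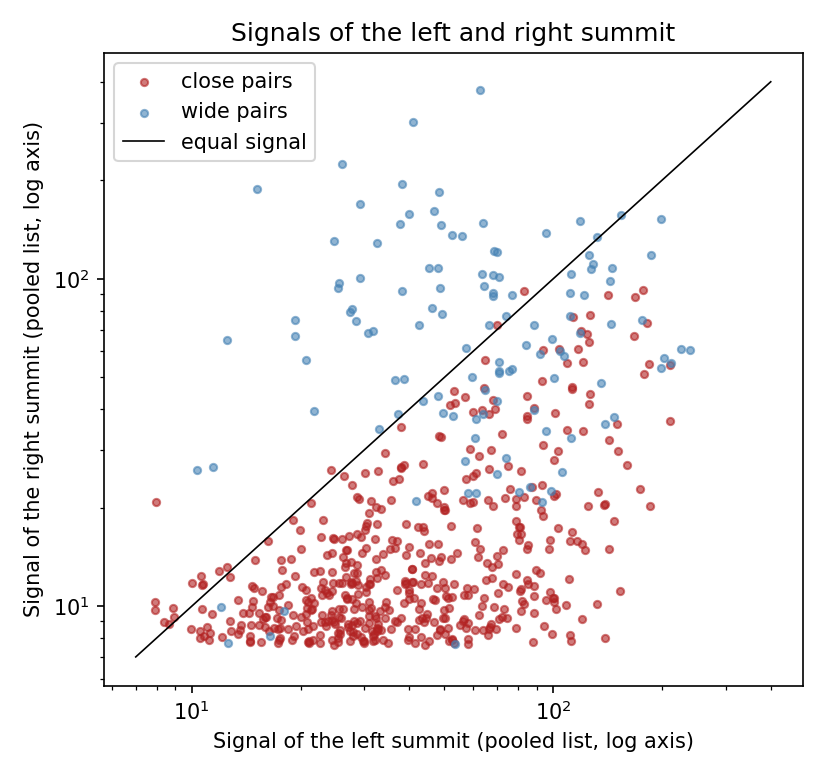
Pooled signal of the left summit (x axis, log scale) against that of the right summit (y axis, log scale) for each pair, with close pairs in red, wide pairs in blue and a line of equal signal. All but 16 close pairs lie below the line, and the wide pairs lie on both sides, 63 below and 58 above.

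Whether the peak intervals around the summits overlap depends on the spacing, so it is no separate evidence of the division. Close summits were at most 283 bp apart and wide ones at least 346 bp, and the most frequent interval was 316 bp wide. The intervals of 464 of 510 close pairs overlapped, by a median of 109 bp, and 2 of these pairs shared one interval. No wide pair had overlapping intervals, and the gap between them ran from 30 to 395 bp with a median of 201 bp. An interval width of 316 bp, which 51.9% of all autosomal summits had, was found for 86.8% of close members and 46.3% of wide members. The deposited −log10 q value stopped at 4.85 in the conservative set; 67.8% of the weaker summits of wide pairs and 8.82% of those of close pairs were at that ceiling, beside 72.8% of the weaker summits of neighbours 501 to 2000 bp apart and 81.6% of all autosomal summits. A summit was counted as present in the authors' optimal set, which keeps more peaks in all, only at the identical coordinate. A summit listed there at another position thus counted as absent. Both summits were present for 100 wide pairs (82.6%) and 242 close pairs (47.5%), beside 88.8% of neighbours 501 to 2000 bp apart. Where only one summit of a close pair was present, it was the stronger one in 174 of 179 pairs.

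The replicates' own lists of 300000 entries were not used by the rule itself, but they are no independent check. Both replicates contributed reads to the pooled list. Their lists were also the input for IDR, the measure of reproducibility by which the conservative set was made. The shares below therefore describe how the pairs appear in each list. A summit was found in a replicate when an entry of that list lay within 50 bp, and a pair was resolved when its summits matched different entries. Wide pairs were resolved in 86.8% of cases in replicate 1 and 89.3% in replicate 2, a mean of 88.0% ± 1.75 (SD, n = 2). Close pairs were resolved in 22.9% and 23.5%, a mean of 23.2% ± 0.416 (SD, n = 2). The classes differed by many times the spread between replicates, but that spread does not measure a limit that both lists share. Neither list placed summits nearer than 199 bp, and close pairs had a median spacing of 203 bp. Close summits lying slightly nearer in a replicate would thus not be listed there as 2 entries. The part of this floor in the lower share of close pairs was not tested. With 2 replicates an exact test could not reach 0.05 and none was made. Neighbours 501 to 2000 bp apart were resolved in 89.5% and 88.9%, close to the wide pairs. Both replicates resolved 98 wide pairs (81.0%) and 48 close pairs (9.41%), and neither replicate resolved 6 wide and 321 close pairs. Single summits gave the same picture: 88.8% of wide members and 31.0% of close members were found in both replicates, beside 88.1% of all autosomal summits. Close members were also fainter, with median signals of 38.3 and 11.3 at the stronger and weaker summit, beside 93.8 and 45.7 in wide pairs. No summits of like signal were compared, so the part of signal in these shares was not tested.

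**Figure D3:**
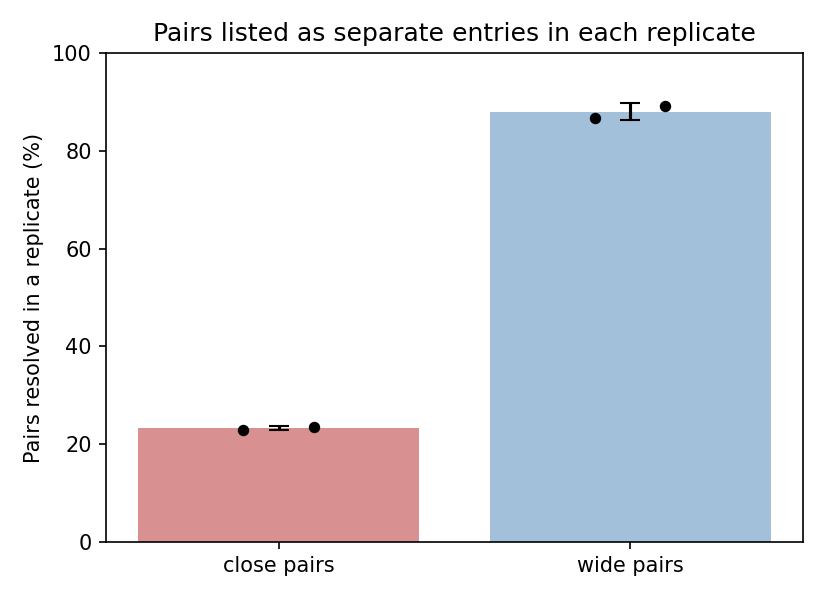
Percentage of close and wide pairs whose summits matched different entries in a replicate's own list (y axis, from 0), with bars for the mean of 2 replicates, error bars for the SD and black points for each replicate. Close pairs stand at 22.9% and 23.5% and wide pairs at 86.8% and 89.3%.

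What a replicate listed in place of a close pair was usually one entry. Over the stretch from 100 bp left of the left summit to 100 bp right of the right one, replicate 1 had a single entry for 383 of 510 close pairs (75.1%) and replicate 2 for 379 (74.3%). Its summit lay a median of 15 bp to the right of the left summit in replicate 1 and 10 bp in replicate 2. It fell between the pair's summits in 225 and 218 cases. Over the stretch of wide pairs, drawn with the same 100 bp on each side, replicate 1 had 2 or more entries for 95.9% and replicate 2 for 94.2%. That stretch is longer, with a median spacing of 455 bp beside 203 bp in close pairs. It has more room for 2 entries, so these shares are not like for like. The stronger summit of close pairs was found in 72.9% and 73.1% of cases and the weaker in 32.9% and 32.0%.

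The order of the summits could be compared in pairs resolved in both replicates. The same summit was the stronger in both replicates in 48 of 48 close pairs and 82 of 98 wide pairs (83.7%). For close pairs this adds little to the one-sidedness already described, since the left summit was the stronger in 113 of 117 resolved close pairs in replicate 1 and 119 of 120 in replicate 2. The 16 wide pairs that changed order were near equality in the pooled list, with a median ratio of 1.13 and a highest ratio of 1.66. The log2 ratio of left to right signal in the 98 wide pairs had a Pearson r of 0.84 and a Spearman rho of 0.81 between replicates, and in the 48 close pairs r was 0.43 and rho 0.36. Each is a description over sites of the same libraries, and the pairs' signals differ in size. From one replicate to the other, that log2 ratio moved with an SD of 0.54 over wide pairs and 0.43 over neighbours 501 to 2000 bp apart. The spacing differed from the pooled spacing by a median of 7 bp in replicate 1 and 12 bp in replicate 2 for resolved wide pairs.

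**Figure D4:**
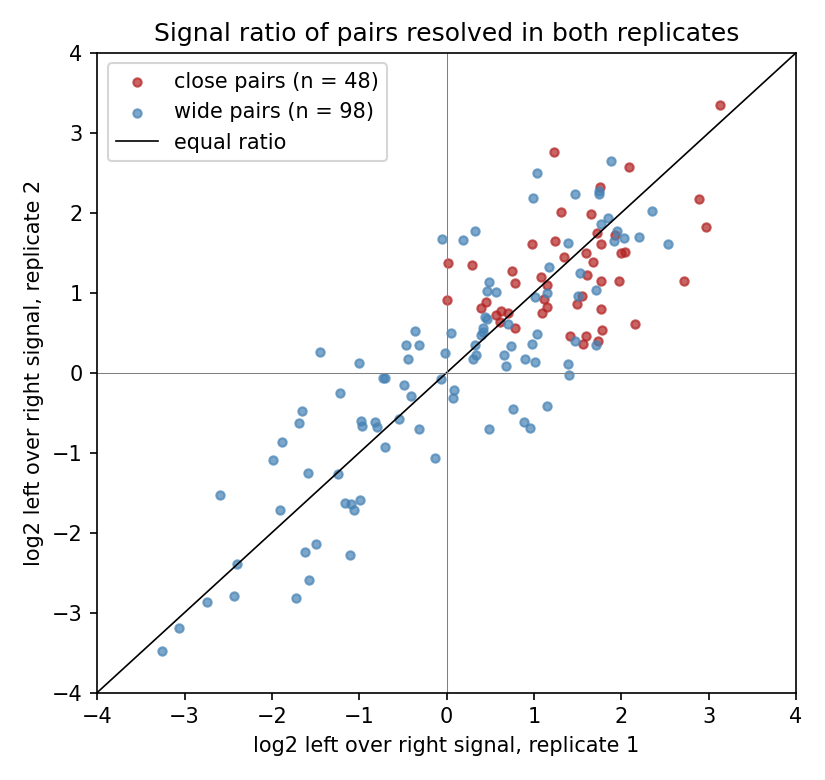
Log2 ratio of left to right signal in replicate 1 (x axis) and replicate 2 (y axis) for pairs resolved in both, with 48 close pairs in red, 98 wide pairs in blue and a line of equal ratio. The close pairs all lie above 0 on both axes, and the wide pairs run along the line on both sides of 0, with 16 of them in the quadrants of opposite sign.

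Relative signal, a summit's signal divided by the median of its replicate over matched autosomal summits, showed how far single members moved between replicates. Of 215 wide members found in both replicates, 23 (10.7%) were over 1.5-fold higher in replicate 1 and 27 (12.6%) over 1.5-fold higher in replicate 2. The shares over all matched autosomal summits were 7.77% and 8.67%. Close members gave 39 and 40 of 316, which is 12.3% and 12.7%. The members' shares lay a few percentage points above the background in each direction, and weaker summits make up more of the close members than of the whole set; the part of signal strength in these shares was not tested.

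The 8 pairs with the highest signal at their weaker summit were all wide. The highest lay in Pip4k2b, a gene for a lipid kinase, on chr11 at 97738920 and 97739376, 456 bp apart, with pooled signals of 153.9 and 156.5. Its left summit had a signal of 88.2 in replicate 1 and 71.9 in replicate 2, and its right summit 51.8 and 98.2. The order of the summits therefore changed between replicates, and the relative signals of 1.92 ± 0.178 on the left and 1.83 ± 0.883 on the right (SD, n = 2) did not differ beyond their spread.

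Oas1f, of the oligoadenylate synthetase family of antiviral sensors, lay 10206 bp from a pair on chr5 at 120836916 and 120837407. The left summit had signals of 111.5 and 87.5 in replicates 1 and 2, and the right one 69.7 and 82.7. The relative signals were 2.39 ± 0.286 and 1.84 ± 0.316 (SD, n = 2), with the left summit higher in both replicates. At Pts, on chr9 at 50528381 and 50528838, the left summit had 57.4 and 77.8 and the right one 71.4 and 61.2. The pooled ratio at Pts was 1.01, the lowest of all 631 pairs, and the stronger side differed between replicates. The mm9 peak at Pts held 1 motif site.

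Rab11fip3, which encodes an effector of recycling endosomes, held a pair on chr17 at 26011891 and 26012380 whose right summit was the higher in both replicates. The left summit had 55.3 and 64.5, and the right one 77.4 and 71.6. Near Aqp5, a water channel gene 1526 bp away, the pair on chr15 at 99596118 and 99596592 was led by the left summit in both replicates, with 100.3 and 86.4 against 61.3 and 56.5. The relative signals there were 2.24 ± 0.121 and 1.42 ± 0.00949 (SD, n = 2). Within replicates, the log2 ratio of left to right signal was 0.709 in replicate 1 and 0.613 in replicate 2. The pair nearest Spag9, a scaffold gene of kinase signalling, lay 7555 bp from it on chr11 at 94133420 and 94133877 with 69.8 and 55.0 on the left and 70.4 and 46.2 on the right, so the sides could not be told apart. A noncoding gene, B230206L02Rik, starts at 94133456 between those summits, and the best match in its window, of 10.9 bits and just under the limit for a site, was centred 5.5 bp from the left summit.

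On chr18 were 2 further pairs of this group. The one nearest Psd2, an exchange factor gene 4609 bp away, had summits at 35959027 and 35959499 with 70.0 and 61.4 on the left and 56.9 and 54.3 on the right. The one in Zfp516, a zinc-finger gene, had summits at 82953931 and 82954387 with 75.02 and 71.8 on the left and 56.9 and 51.7 on the right. In both, the left summit was the higher in each replicate, and relative signals did not overlap.

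**Figure D5:**
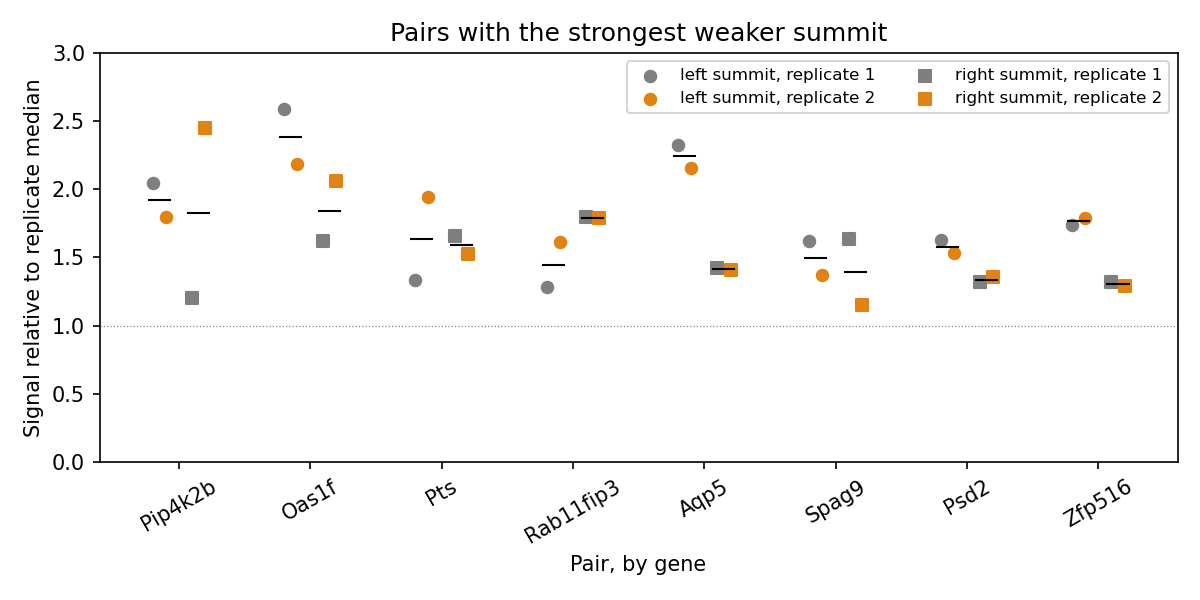
Signal relative to the replicate median (y axis) at the left (circles) and right (squares) summit of the 8 pairs with the strongest weaker summit, in replicate 1 (grey) and replicate 2 (orange), with short lines for the mean of 2 replicates. All values lie above 1; the sides do not overlap at Oas1f, Rab11fip3, Aqp5, Psd2 and Zfp516, and they overlap at Pip4k2b, Pts and Spag9.

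The largest ratios belonged to close pairs whose right summit was not found in either replicate. Near Fam180a the summits on chr6 at 35334523 and 35334726 had pooled signals of 139.1 and 8.01, a ratio of 17.4. The left summit had 88.5 and 51.1 in the replicates, and no other entry lay in the stretch. In Gng8, a G-protein gamma subunit gene, the pair on chr7 at 16892195 and 16892396 had a ratio of 14.4, with 63.0 and 51.5 on the left. Sec22c, of vesicle traffic, held a pair on chr9 at 121697784 and 121698007 with a ratio of 13.8 and 80.1 and 73.1 on the left. Tcim, a regulator of beta-catenin signalling, lay 42084 bp from a pair on chr8 at 24394988 and 24395188 with a ratio of 13.7. The right summits of these 4 pairs had pooled signals of 7.80 to 11.1, near the lowest in the conservative set, 7.60.

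At the smallest spacing of 199 bp, the 4 pairs of highest summed signal all had a stronger left summit. Lsm11, a component of the histone pre-mRNA processing particle, lay 1428 bp from a pair on chr11 at 45926739 and 45926938, with 99.3 and 86.1 on the left and 11.3 and 8.44 on the right. Both replicates resolved it, 212 and 203 bp apart. Pairs 226628 bp from Vstm2b, the nearest coding gene (chr7 at 40671284 and 40671483), and in Bbx (chr16 at 50201739 and 50201938), an HMG-box gene, were also resolved in both. Vstm2b had 62.6 and 61.6 on the left and 18.4 and 20.2 on the right. At Ptgdr2, the gene of a prostaglandin receptor, the pair on chr19 at 10936134 and 10936333 was resolved in replicate 1, with 62.8 and 29.4, while replicate 2 listed a single entry of 53.5 that lay 81 bp to the right of the left summit. These pairs show that close pairs were not uniform: some were listed separately in each replicate and others as one entry.

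At the largest spacings, Nek10, a kinase gene, held a pair 499 bp apart on chr14 at 14905183 and 14905682. Its left summit had 34.5 and 35.8 and its right one 25.9 and 24.2, higher on the left in both replicates. H2-M10.6, an MHC class I gene, lay 10446 bp from a pair 498 bp apart on chr17 with 35.2 and 35.0 on the left and 15.6 and 13.96 on the right. Slc38a10, a transporter gene, held a pair 498 bp apart on chr11 that was led by its right summit, with 76.3 and 70.1. Its left summit was matched only in replicate 2, at 21.6; replicate 1 listed an entry of 23.2 that lay 66 bp from it, outside the limit of 50 bp.

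Coding genes started between the summits of 4 pairs, of which 2 were wide and 2 close. The wide ones were Pts, above, and Ifit2, an interferon-induced gene, on chr19 at 34550588 and 34551086. At Ifit2 the right summit had 51.2 and 45.0, and the left one 11.9 in replicate 1; in replicate 2 an entry of 14.4 lay 79 bp to its left. The close ones were Tcam1, a testicular cell adhesion gene, and Samd9l. Tcam1, on chr11 at 106276646 and 106276846, had a left summit of 24.2 and 23.9 and a right one of 13.9 in replicate 2 alone. At Samd9l, on chr6 at 3399568 and 3399787, neither summit was matched: replicate 1 listed one entry, of 27.0, at 56 bp to the right of the left summit and replicate 2 one, of 17.7, at 89 bp. Both entries lay between the pooled summits; the motif printed above is centred 47.5 bp to the right of the left summit.

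The positions of pairs relative to genes are given beside those of all autosomal summits, and the differences were not tested. The midpoint lay within 1000 bp of a coding gene start in 7 of 117 wide pairs (5.98%) and 23 of 504 close pairs (4.56%), beside 4.22% of all autosomal summits. These counts use starts of 79.6% of autosomal coding genes, and no start was used for chr18. Midpoints lay inside a coding gene in 43.0% of wide and 47.8% of close pairs, beside 49.7% of all summits. Outside genes, the nearest coding gene was a median of 10446 bp from 69 wide pairs and 16240 bp from close pairs. For these distances there is no value over all summits to set beside them.

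Of 510 close pairs 6 (1.18%) and of 121 wide pairs 0 lay in or within 10 kb of a gene of the 11 lists examined, beside 1.88% of all autosomal summits and 2.09% of neighbours 501 to 2000 bp apart. These shares are too small for the count of 0 in 121 to be read as a difference. The lists covered pluripotency (26 genes), LIF and FGF signalling (25), imprinted genes (46), CTCF and cohesin (20), DNA methylation (16), Polycomb and chromatin (32), Hox (39), cytosolic ribosomal proteins (80), clustered protocadherins (34), Wnt and TGF-beta signalling (69) and later-lineage transcription factors (64). The strongest of the 6 by its weaker summit lay in Hoxd3, within reach of Hoxd4 and Hoxd8, body-patterning genes, on chr2 at 74715950 and 74716166. It was resolved in both replicates, with 32.5 and 29.7 on the left and 24.8 and 16.9 on the right. The other 5 were resolved in neither. In Dnmt3a, a de novo DNA methyltransferase gene, the pair on chr12 at 3871822 and 3872024 had pooled signals of 66.6 and 8.52, and each replicate listed one entry, of 35.3 and 36.8.

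The pair in Kcnq1, a potassium channel gene of an imprinted domain, had pooled signals of 19.4 and 8.72, and that in Snrpn, another imprinted gene, 11.0 and 8.67. The pair near Bmpr1a, a BMP receptor gene, had 29.6 and 9.92, and that in Pax5, a B-cell factor gene, 32.1 and 7.90. In these 4 the weaker summit was close to the lowest signal of the set. Snrpn had no entry over its stretch in replicate 1 and one of 10.6 in replicate 2.

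Some resolved pairs shifted between replicates. The left summit was relatively higher in replicate 1 in Galnt17 (chr5 at 131008004 and 131008357), with 42.7 against 22.1 on the right in replicate 1 and 17.1 against 27.8 in replicate 2. The pair in Cstl1, on chr2 at 148752067 and 148752523, went the other way, with 20.1 against 55.0 in replicate 1 and 30.5 against 25.6 in replicate 2. Near Arl11, a small GTPase gene, the sides were 32.2 and 33.4 in replicate 1 and 44.4 and 13.96 in replicate 2. These 3 are wide pairs, and no close pair resolved in both replicates changed side. Among close pairs, those near Cyld, a deubiquitinase gene, and Pigv, a gene of GPI anchor synthesis, shifted most but kept the left summit on top in both replicates.

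Of 292 coding genes that held a pair, 4 had 2 pairs and none had more. Tmem132c had close pairs on chr5 at 127403572 and 127403775 and at 127438822 and 127439025. The second was the stronger, with 102.7 and 106.0 on the left and 13.1 and 29.9 on the right. Tmem108 had close pairs on chr9, of which the one at 103576149 and 103576355 was resolved in both replicates, with 42.7 and 42.7 on the left and 24.8 and 19.7 on the right. Zbed4 held a wide pair on chr15 at 88766361 and 88766809, with 55.0 and 53.1 against 14.9 and 8.48, and a close pair that neither replicate resolved. In Stk38l, a kinase gene, the close pairs lay at 146760750 and 146760953 and at 146762508 and 146762708 on chr6. At the second of these, replicate 1 listed one entry 10 bp left of the left summit and replicate 2 one entry 6 bp left of the right summit, so each replicate named a different side.

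Close pairs occurred on each autosome at 4.82 to 15.8 per 1000 summits, lowest on chr18 and highest on chr6. Wide pairs occurred at 1.22 to 6.17 per 1000, lowest on chr13 and highest on chr19. With 2 to 15 wide pairs per chromosome, these rates rest on small counts.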

How the data were processed

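Peak lists of CTCF ChIP-seq in 2 biological replicates of 1 cell line were used. Per the labels and the descriptions deposited with the samples, the mm10 lists hold peaks and background for each replicate and pooled, made against a control as input for IDR, a measure of reproducibility, and the authors kept conservative and optimal sets. The deposited signal (column 7) has no stated scale; the authors also deposited a −log10 q value and an integer score of at most 1000. The deposited mm9 broad peaks give a fold enrichment, a ratio on the authors' scale. The sources used here name no peak caller, aligner or IDR threshold, and without read counts the depth is unknown.

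The members and gene lists were chosen with earlier results of these data known. Summits were column 2 plus column 10, printed counting from 1, with Python 3.11.15, numpy 2.4.6, pandas 2.3.3 and scipy 1.17.1. Replicate entries were matched within 50 bp. Gene spans and starts came from RefSeq tables (GRCm38.p6), and the 5% motif limit was set on their promoter windows. The 20 bp matrix began from the CTCF core consensus with 1 mismatch within 150 bp of mm9 peak midpoints and was refined 3 times, keeping sites over 10 bits. Promoter windows were matched letter for letter to mm9, and no coordinates were converted. Genes were named by rule: the 8 pairs of highest weaker signal, the 4 of largest ratio, smallest and largest spacing, those with a gene start between, up to 2 per list, 3 per direction of replicate shift and genes with 2 pairs. The pair and motif searches were tested on simulated data. Replicates come from 1 line, and their spread may be partly technical.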

Additional observations from a re-analysis of the deposited data

How the results depend on the processing

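The main values were 1272 members, 631 pairs, a median spacing of 206 bp, a median ratio of 2.62, 23.1% of pairs resolved in both replicates, 89.0% of those with the same stronger summit, 4.83% near a start and 46.9% inside a gene. A lower bound of 100 bp could change nothing, since no spacing was under 199 bp. Of 51 alternative values over the other 11 settings, 21 stayed within a set limit and 30 did not. The limit was 1.5 times for counts and the SD between replicates for most other values. For the share with the same stronger summit it was the exact 95% binomial interval, 82.8% to 93.6%. That interval treats pairs of the same 2 libraries as independent, so it does not measure the spread between replicates. For spacing the SD was 78.8 bp, so 248 bp counted as unchanged from 206 bp. These limits are therefore a rough guide. An upper bound of 300 bp gave a ratio of 2.75, 9.41% resolved and the same stronger summit in 100%. With no other summit within 20 kb but the partner, there were 455 members and 226 pairs, a ratio of 2.44, 18.6% resolved and 43.4% inside genes. The optimal set gave a ratio of 2.51 and 29.4% resolved. Matching within 25 or 100 bp gave 12.995% and 25.7% resolved. A start window of 5000 bp gave 16.4%, starts of all genes 5.80%, and all genes in place of coding ones 58.3% inside. Wide pairs alone, an alternative chosen after seeing the data, gave 246 members, 121 pairs, 455 bp, 1.93, 81.0%, 5.98% near a start and 43.0% inside genes. Using only one replicate's 42335 strongest entries gave 594 to 620 members, 294 to 308 pairs, a spacing of 248 to 359 bp, a ratio of 2.13 to 2.16, 4.92% to 5.59% near a start and 45.9% to 47.7% inside genes. The cause of these changes was not tested, beyond the fewer pairs that narrower bounds admit. In those lists the left summit was the stronger in 140 of 144 and 156 of 157 close pairs and in 74 of 150 and 82 of 151 wide pairs, for replicates 1 and 2. No pairing of samples between groups was possible because the series has 1 group. Left and right summits were compared within each replicate. Depth is unknown, so how far it limits the faint summits of close pairs was not tested.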

Other observations

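On the X chromosome, which the rule leaves out, 1009 conservative summits gave 15 pairs by the same distances and density. Of these, 10 were close and 5 wide, and the left summit was the stronger in 10 of 10 close pairs. The X chromosome is present once in this male line, so its signals were not set beside those of the autosomes.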
